A study of Homo sapiens with 24 samples.

Results

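Ribosome biogenesis factors are the proteins that make and mature ribosomal RNA and assemble it with ribosomal proteins, and 59 of their genes were examined here by name. A gene entered through probe sets that the platform annotation assigns to it alone, and the probe set with the highest mean over the 24 arrays stood for the gene. By that rule 56 of the 59 genes were measured, out of 18132 genes on the array. DDX18, EBNA1BP2 and GNL3 had no probe set assigned to them alone and have no value below.

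The 24 arrays (Affymetrix PrimeView, 3 per group) carried RNA of Caki-1 and 769-P cells, established human renal cell carcinoma lines, and asked how dasatinib, a tyrosine kinase inhibitor that acts on SRC-family kinases and ABL, changes their transcripts. Each line gave 4 groups, which were vehicle (DMSO) and 1 µM dasatinib for 6, 12 or 24 h. The DMSO arrays carry no time, so 1 DMSO group per line was set against all 3 times, and the 3 comparisons of a line share those control arrays. Time in dasatinib and time in culture therefore cannot be told apart. The labels number 3 biological replicates per group without saying that the cultures were separate, so the p-values measure the spread between these arrays. Values are the deposited log2 signals, and a change is the dasatinib group mean minus the DMSO group mean of the same line, in log2 units. A gene is said to rise or fall only where limma's adjusted p was under 0.05, with adjustment over all 12423 genes tested in Caki-1, 12354 in 769-P or 12864 in both lines together.

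All 56 genes were brighter than the limit set for testing, the 40th percentile of all probe sets in the line (5.38 in Caki-1 and 5.36 in 769-P). Array medians lay between 6.01 and 6.08, and arrays of 1 group correlated at 0.993 or more. The 5 renal epithelial markers with a probe set (PAX8, PAX2, KRT8, KRT18 and CDH16) were above the limit in both lines, at 5.84 to 11.80 in Caki-1 and 6.69 to 12.09 in 769-P. Of 3 leukocyte markers, CD3E and CD14 in Caki-1 and CD3E in 769-P passed it, at 5.47 to 5.54, and PTPRC lay at 3.45 and 3.48. Of 3 endothelial markers PECAM1 and VWF passed it, at 5.54 to 5.89, and CDH5 did not. Each group has 3 arrays, which limits the precision. Signals of different genes are not compared, because each probe set has its own affinity. In a culture, fewer cells with a transcript and less of it per cell cannot be told apart.

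Ribosome production starts in the nucleolus, where RNA polymerase I copies the ribosomal DNA into one long precursor. Small nucleolar ribonucleoproteins (snoRNPs) modify this precursor, the small subunit processome cleaves and folds its 40S part, and a separate set of assembly factors builds the 60S subunit. The transcription factor MYC is known to drive many of these genes through the E-box motif, and cancer cells often run the pathway at high rates.

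The promoters are shown to describe the motifs they hold. Whether a motif bears on the changes was not tested. RefSeq promoter windows on GRCh38.p14, 250 bases before a listed start and 50 after it, were on hand for 50 of the 59 genes (not for BOP1, DDX18, DDX52, NOLC1, NOP58, POLR1E, RRP12, RRP1B and RRS1). The canonical E-box CACGTG, searched on both strands and identical on both, occurred in 19 of the 50 windows (38.0%), against 7.44% of all 27305 promoters in the RefSeq table. In 46 of the 50 the window's start is the outer end of the gene in the RefSeq gene table. In BYSL, PES1, NPM1 and UTP15 it lies 12740, 15103, 733 and 2 bases inside the gene as that table gives it. The E-box's first base lay 0 to 49 bases after the window's start in 15 of the 50 (30%), BYSL and PES1 among them, and in 13 of the 46 (28.3%), against 0.912% of all promoters in that stretch. An E-box lying wholly before the start was found in 5 of 50 (10.0%), against 6.49%, and in RRP9 (a U3 snoRNP protein) a site crossed the start. The ETS core CCGGAAG, searched on both strands and not overlapping the E-box letters, was in 20 of 50 (40%), against 10.7%. Among 96 promoters of other ribosome biogenesis genes the E-box was in 25% and the ETS core in 41.7%. A match is a description of the letters and not a bound site. The 8 genes with an E-box and the largest mean size of change are shown as 30 bases around it, 5′ to 3′ on the gene's strand, with the E-box in capitals.
NOC3L: tagggacttcggCACGTGtgtcattccccg
BYSL: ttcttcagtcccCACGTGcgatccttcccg
WDR43: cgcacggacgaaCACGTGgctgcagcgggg
MRTO4: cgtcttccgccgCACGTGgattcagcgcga
UTP20: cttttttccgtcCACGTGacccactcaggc
LTV1: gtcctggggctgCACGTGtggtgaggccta
PNO1: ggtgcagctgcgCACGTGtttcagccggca
NOP2: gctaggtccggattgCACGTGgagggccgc
These windows lie, with the strand in brackets, at NOC3L chr10:94362903-94362932 (-), BYSL chr6:41921515-41921544 (+), WDR43 chr2:28894658-28894687 (+), MRTO4 chr1:19251807-19251836 (+), UTP20 chr12:101280083-101280112 (+), LTV1 chr6:143843354-143843383 (+), PNO1 chr2:68157885-68157914 (+), NOP2 chr12:6568242-6568271 (-). The first base of the E-box lay 3 (WDR43) to 35 (NOP2) bases after the start in 7 of these genes. In UTP20 it lay 10 bases before the start, and its 250 upstream bases (chr12:101279855-101280104, + strand) are printed as the one upstream stretch among the leading genes of each class that holds the motif, again in capitals.
UTP20: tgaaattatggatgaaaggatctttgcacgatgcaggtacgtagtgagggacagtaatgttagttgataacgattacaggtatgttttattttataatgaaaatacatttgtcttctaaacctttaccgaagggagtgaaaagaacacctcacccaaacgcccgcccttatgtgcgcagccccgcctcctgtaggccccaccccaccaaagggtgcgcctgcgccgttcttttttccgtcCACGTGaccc

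**Figure D1:**
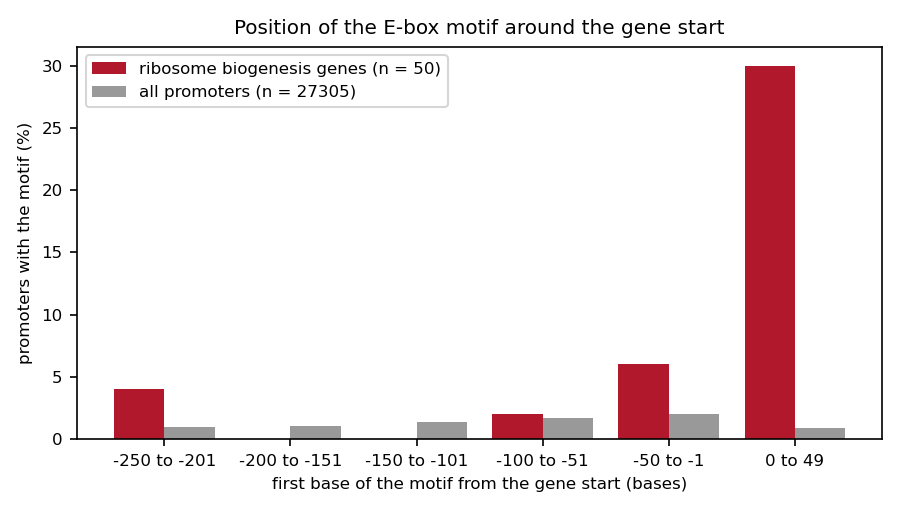
Share of promoters (%) whose E-box starts in each 50-base stretch from 250 bases before to 49 bases after the gene start, for the 50 ribosome biogenesis genes and for all 27305 promoters. The last stretch holds the motif in 30% of the ribosome biogenesis genes and 0.912% of all promoters.

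Nearly every one of the 56 measured ribosome biogenesis genes fell under dasatinib in both lines. The genes were chosen with earlier results of these data known. In Caki-1, 48 of 56 fell at 6 h, 55 at 12 h and 55 at 24 h, and 0 rose at any time. The share of all genes tested that fell was 14.0% at 6 h, 24.4% at 12 h and 29.9% at 24 h. In 769-P, 44 fell at 6 h, 53 at 12 h and 50 at 24 h, against 14.5%, 22.6% and 24.6% of all genes tested, and 1 gene, DDX10, rose at each time. Of all genes tested 12.3%, 24.1% and 32.9% rose in Caki-1 and 16.4%, 24.9% and 31.1% in 769-P. The median change of the 56 genes was -0.51 at 6 h, -1.01 at 12 h and -1.17 at 24 h in Caki-1, where the median of all genes tested was 0.0086, 0.045 and 0.079. It was -0.65, -0.93 and -0.80 in 769-P, where all genes had medians of 0.025, 0.018 and 0.039. The median left 44.4% of the DMSO signal in Caki-1 at 24 h and 57.3% in 769-P at 24 h.

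The falls separated the arrays of a line. All 3 dasatinib arrays lay below all 3 DMSO arrays for 49, 56 and 55 of the 56 genes at 6, 12 and 24 h in Caki-1, while 20.6%, 28.1% and 30.9% of all genes tested did. In 769-P they did for 45, 53 and 51 genes, while 19.5%, 25.8% and 26.6% of all genes did. All 3 lay above DMSO for 0 of the 56 in Caki-1, while 19.8%, 30.2% and 35.9% of all genes did, and for DDX10 alone of the 56 in 769-P, while 23.6%, 28.3% and 33.9% did. In Caki-1 a change below -1 was found for 10, 29 and 34 of the 56 genes at 6, 12 and 24 h, while 1.28%, 3.42% and 7.53% of all genes tested lay there. In 769-P it was found for 15, 25 and 19 genes, while 1.88%, 3.79% and 6.08% of all genes lay there. Across the 6 comparisons 38 genes fell in all, 9 in 5, 6 in 4 and 3 in fewer. Those 3 were RRN3, which fell in 2, and DDX10 and DKC1, which fell in the 3 Caki-1 comparisons. The share of all genes tested that fell in all 6 was not counted, so these counts have no background beside them. The 3 comparisons of a line share their DMSO arrays and are not separate agreements. The 6 genes that fell in 4 were BOP1, NHP2 and NOC2L (a 60S factor), which fell at 12 and 24 h in both lines, with DDX52, WDR12 and TBL3 (a processome subunit). In 38 genes more than 1 probe set was above the limit, and all of a gene's probe sets had changes below 0 in 34 (6 h), 37 (12 h) and 37 (24 h) of them in Caki-1 and in 34, 36 and 37 in 769-P. NOL6, a small subunit processome protein, had probe sets of both signs in 5 of the 6 comparisons.

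**Figure D2:**
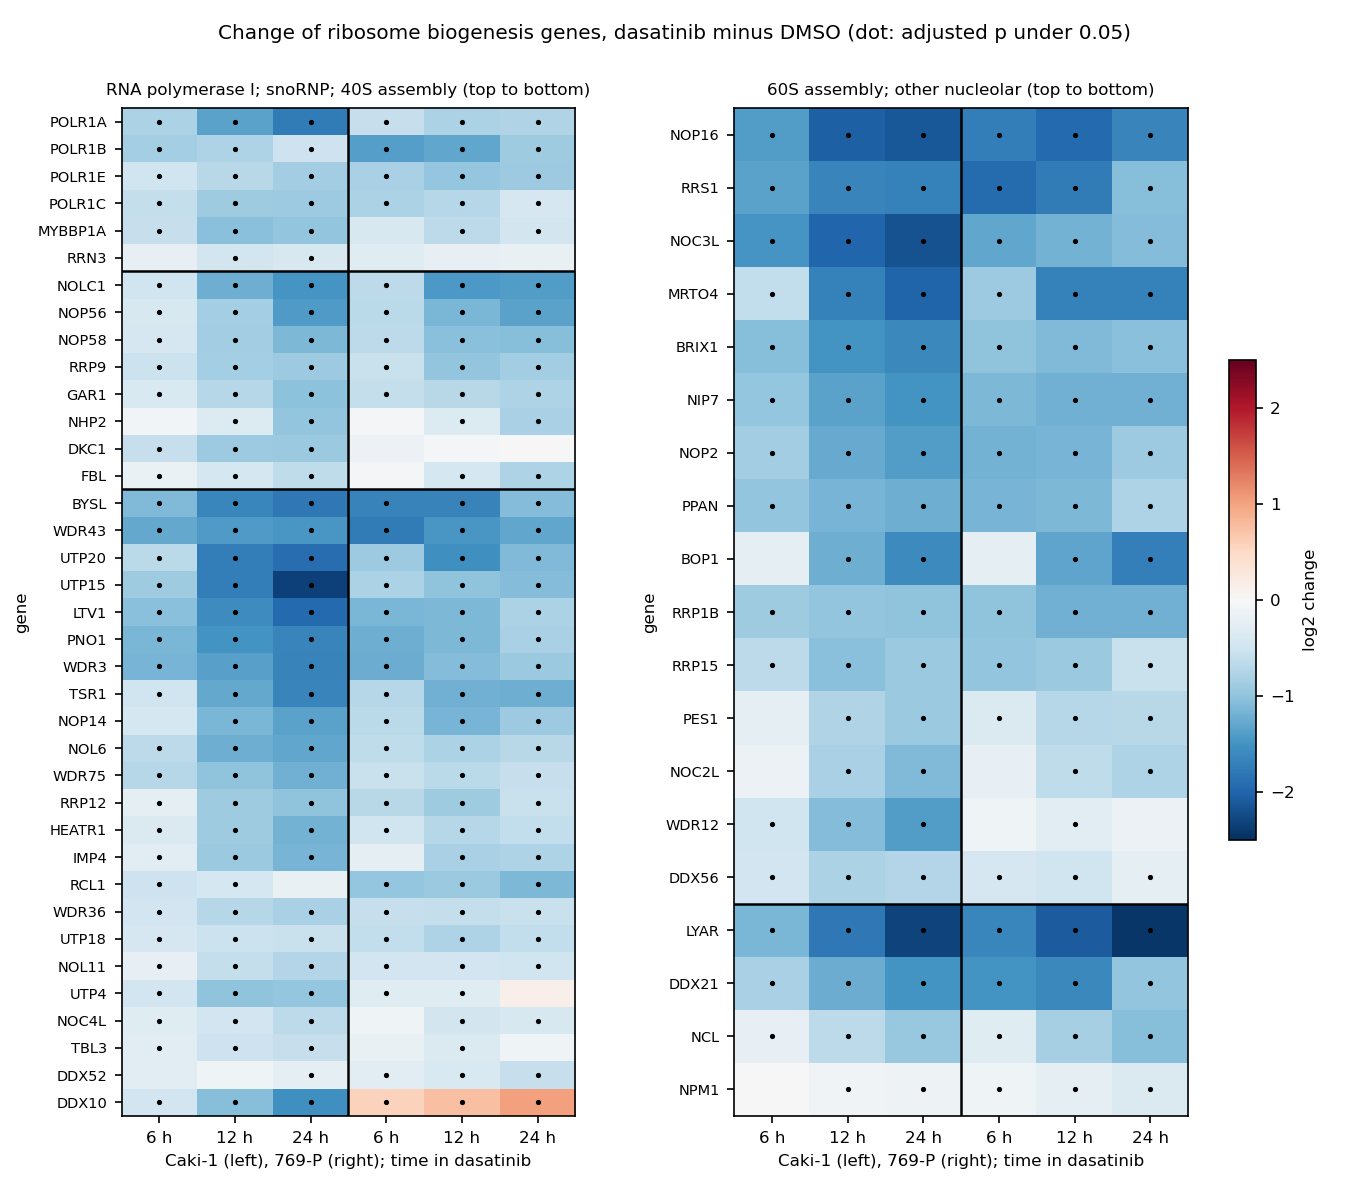
Log2 change against DMSO (colour, blue below 0 and red above 0) of the 56 measured genes (rows, by role) at 6, 12 and 24 h in Caki-1 and 769-P (columns), with a dot where limma's adjusted p was under 0.05. All but DDX10 in 769-P are blue or near white where called.

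The 6 RNA polymerase I genes examined here fell moderately, while the other RNA polymerase I genes, given further below, had smaller median changes. The counts that fell were 5, 6 and 6 of 6 at 6, 12 and 24 h in Caki-1, and 4, 5 and 5 in 769-P, and the median changes were -0.59, -0.83 and -0.89 at 6, 12 and 24 h in Caki-1, and -0.68, -0.75 and -0.61 in 769-P. POLR1A (chr2:86020216-86105886, GRCh38.p14) encodes the largest catalytic subunit. In Caki-1 the log2 signals of this gene were 8.81, 9.03 and 8.92 in DMSO, 8.15, 8.03 and 8.21 at 6 h, 7.804, 7.62 and 7.33 at 12 h and 7.24, 7.19 and 7.101 at 24 h. The 769-P signals were 8.503, 8.203 and 8.05 in DMSO, 7.76, 7.74 and 7.52 at 6 h, 7.51, 7.502 and 7.35 at 12 h and 7.48, 7.59 and 7.405 at 24 h. No dasatinib array of either line overlapped the DMSO arrays, and in Caki-1 the change deepened to -1.75 ± 0.11 (SE, n = 3 arrays a group, limma adjusted p = 4.23e-09) at 24 h, against -0.79 ± 0.11 (SE, n = 3 arrays a group, limma adjusted p = 9.67e-05) at 6 h.

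POLR1B (chr2:112542036-112579818) encodes the other large catalytic subunit. In Caki-1 its log2 signals were 10.74, 10.83 and 10.89 in DMSO, 9.84, 9.999 and 10.09 at 6 h, 9.86, 10.28 and 10.03 at 12 h and 10.28, 10.18 and 10.43 at 24 h. In 769-P cells the values were 9.81, 9.49 and 9.53 in DMSO, 8.204, 8.33 and 8.16 at 6 h, 8.45, 8.37 and 8.08 at 12 h and 8.79, 8.78 and 8.56 at 24 h. Dasatinib and DMSO arrays did not overlap in either line, and the change was smallest at 24 h, at -0.52 ± 0.10 (SE, n = 3 arrays a group, limma adjusted p = 0.00031) in Caki-1 and -0.89 ± 0.11 (SE, n = 3 arrays a group, limma adjusted p = 5.02e-06) in 769-P. POLR1C, a subunit shared with RNA polymerase III, changed by -0.61, -0.90 and -0.91 in Caki-1 and -0.79, -0.71 and -0.42 in 769-P and fell in all 6 comparisons. POLR1E, a further subunit, fell in all 6 as well, with changes of -0.50 to -0.97. MYBBP1A, a nucleolar protein that binds the polymerase, fell in 5, with -0.41 in 769-P at 6 h not called.

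RRN3, the initiation factor that brings the polymerase to the ribosomal DNA promoter, had the smallest mean size of change over the 6 comparisons in its class. Its log2 signals in Caki-1 were 6.93, 7.304 and 7.13 in DMSO, 6.805, 6.89 and 7.07 at 6 h, 6.65, 6.61 and 6.73 at 12 h and 6.67, 6.59 and 6.901 at 24 h. The arrays of 769-P read 7.43, 7.18 and 6.86 in DMSO, 6.87, 6.84 and 6.87 at 6 h, 6.901, 6.99 and 6.98 at 12 h and 6.81, 7.01 and 7.12 at 24 h. It fell in Caki-1 at 12 h (-0.46, adjusted p = 0.00404 by limma) and 24 h (-0.40, adjusted p = 0.00714), where the arrays did not overlap. In 769-P the changes were -0.30, -0.20 and -0.18, none called with all arrays, and without DMSO replicate 3 they were -0.44, -0.35 and -0.33 and all called. With the mean of its probe sets the Caki-1 changes were -0.23 and -0.23 and not called.

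The snoRNP protein genes had smaller median changes at 6 h than at 12 and 24 h. The counts that fell were 7, 8 and 8 of 8 at 6, 12 and 24 h in Caki-1, and 5, 7 and 7 in 769-P, with median changes of -0.41, -0.85 and -1.01 at 6, 12 and 24 h in Caki-1, and -0.57, -0.83 and -0.84 in 769-P. NOLC1 (chr10:102152389-102163870), a nucleolar chaperone of snoRNPs, had log2 signals in Caki-1 of 12.32, 12.46 and 12.59 in DMSO, 11.95, 11.99 and 11.95 at 6 h, 11.21, 11.21 and 11.26 at 12 h and 11.06, 10.905 and 11.005 at 24 h. 769-P arrays had signals of 12.42, 12.204 and 12.16 in DMSO, 11.65, 11.62 and 11.55 at 6 h, 10.897, 10.86 and 10.69 at 12 h and 10.89, 10.89 and 10.83 at 24 h. No dasatinib array overlapped DMSO, and most of the fall came by 12 h, with -1.23 ± 0.063 (SE, n = 3 arrays a group, limma adjusted p = 2.71e-09) in Caki-1 and -1.45 ± 0.074 (SE, n = 3 arrays a group, limma adjusted p = 8.15e-10) in 769-P.

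NOP56 (chr20:2652632-2658393), a core protein of box C/D snoRNPs, had log2 signals in Caki-1 of 11.84, 11.95 and 11.95 in DMSO, 11.41, 11.55 and 11.58 at 6 h, 11.24, 11.01 and 10.95 at 12 h and 10.503, 10.49 and 10.47 at 24 h. In 769-P they were 12.37, 12.14 and 12.15 in DMSO, 11.63, 11.56 and 11.46 at 6 h, 11.18, 11.11 and 10.97 at 12 h and 10.86, 10.79 and 10.97 at 24 h. No dasatinib array overlapped DMSO, and the changes at 24 h were -1.42 ± 0.072 (SE, n = 3 arrays a group, limma adjusted p = 4.98e-10) in Caki-1 and -1.35 ± 0.078 (SE, n = 3 arrays a group, limma adjusted p = 8e-10) in 769-P. FBL, the box C/D methyltransferase, had the smallest mean size of change over the 6 comparisons in its class. In Caki-1 the log2 signals of this gene were 12.77, 12.79 and 12.79 in DMSO, 12.66, 12.61 and 12.56 at 6 h, 12.34, 12.34 and 12.35 at 12 h and 12.23, 12.13 and 12.07 at 24 h. The 769-P signals were 12.597, 12.58 and 12.51 in DMSO, 12.54, 12.502 and 12.51 at 6 h, 12.05, 12.24 and 12.09 at 12 h and 11.92, 11.77 and 11.71 at 24 h. The 6 h arrays in 769-P overlapped DMSO (change -0.045), whereas the later arrays of both lines did not, with -0.64 in Caki-1 and -0.76 in 769-P at 24 h. FBL's call at 6 h in Caki-1 (change -0.17) was lost without the 6 h replicate 3 (-0.15, adjusted p = 0.055 by limma) and without an intensity trend in the fit (adjusted p = 0.0583).

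Their partner NOP58 fell in all 6 comparisons (-0.42, -0.86 and -1.13 in Caki-1 and -0.65, -1.05 and -1.07 in 769-P), as did RRP9, a protein of the U3 snoRNP, and GAR1, a core protein of box H/ACA snoRNPs. NHP2, another H/ACA core protein, had 6 h changes of -0.071 in Caki-1 and -0.024 in 769-P, neither called, and fell at 24 h, with -0.996 in Caki-1 and -0.81 in 769-P. DKC1, the pseudouridine synthase of the same particles, fell in Caki-1 alone among the called results (-0.57, -0.90 and -0.92), and its 769-P changes were -0.15, -0.027 and -0.0044, each with an SE of 0.069.

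The small subunit processome and 40S assembly genes, the largest class, mostly fell, and DDX10 was the one gene of the class that rose. The counts that fell were 21, 22 and 22 of 23 at 6, 12 and 24 h in Caki-1, and 19, 22 and 20 in 769-P, with median changes of -0.48, -1.01 and -1.19 at 6, 12 and 24 h in Caki-1, and -0.64, -0.82 and -0.70 in 769-P. BYSL (chr6:41908759-41933046 as the gene table gives it, with its printed window inside that span), bystin, a 40S assembly factor, had log2 signals in Caki-1 of 8.98, 9.19 and 9.29 in DMSO, 7.99, 8.195 and 7.96 at 6 h, 7.64, 7.397 and 7.55 at 12 h and 7.66, 7.25 and 7.21 at 24 h. In 769-P cells the values were 8.47, 8.31 and 8.15 in DMSO, 6.64, 6.65 and 6.64 at 6 h, 6.59, 6.897 and 6.43 at 12 h and 7.29, 7.23 and 7.18 at 24 h. All dasatinib arrays were below all DMSO arrays, with -1.78 ± 0.12 (SE, n = 3 arrays a group, limma adjusted p = 1.14e-08) in Caki-1 at 24 h and -1.67 ± 0.12 (SE, n = 3 arrays a group, limma adjusted p = 4.31e-08) in 769-P at 6 h.

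WDR43 (chr2:28894667-28948219), a processome subunit that also takes part in ribosomal DNA transcription, was already low at 6 h. Its log2 signals in Caki-1 were 8.76, 9.14 and 9.31 in DMSO, 7.51, 7.98 and 7.896 at 6 h, 7.56, 7.76 and 7.66 at 12 h and 7.71, 7.42 and 7.73 at 24 h. The arrays of 769-P read 9.22, 9.02 and 9.08 in DMSO, 7.296, 7.46 and 7.299 at 6 h, 7.86, 7.47 and 7.59 at 12 h and 7.69, 7.87 and 7.85 at 24 h. The groups did not overlap, and the change at 6 h was -1.27 ± 0.15 (SE, n = 3 arrays a group, limma adjusted p = 1.68e-05) in Caki-1 and -1.75 ± 0.11 (SE, n = 3 arrays a group, limma adjusted p = 1.03e-08) in 769-P. UTP20 (chr12:101280105-101386618), a large scaffold of the processome whose promoter is printed above, went on falling between 6 and 12 h in Caki-1. In Caki-1 its log2 signals were 8.13, 8.59 and 8.49 in DMSO, 7.64, 7.76 and 7.78 at 6 h, 6.91, 6.51 and 6.59 at 12 h and 6.59, 6.36 and 6.52 at 24 h. 769-P arrays had signals of 8.76, 8.64 and 8.66 in DMSO, 7.77, 7.895 and 7.66 at 6 h, 7.37, 7.11 and 6.98 at 12 h and 7.92, 7.47 and 7.38 at 24 h. Its change in Caki-1 was -0.68 at 6 h and -1.91 ± 0.13 (SE, n = 3 arrays a group, limma adjusted p = 7.66e-09) at 24 h, and in 769-P it was largest at 12 h (-1.53 ± 0.13 SE, n = 3 arrays a group, limma adjusted p = 1.76e-07).

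Among the other members of the class, UTP15, a processome subunit needed for ribosomal DNA transcription, reached -2.33 ± 0.16 (SE, n = 3 arrays a group, limma adjusted p = 1.25e-08) in Caki-1 at 24 h. PNO1, LTV1 and TSR1, which accompany late 40S particles, fell in all 6 comparisons, with changes at 24 h of -1.65, -1.93 and -1.65 in Caki-1. In 769-P the same genes had -0.82, -0.79 and -1.21 at 24 h. DDX52, a helicase known in yeast (Rok1) for 40S maturation, had the smallest mean size of change over the 6 comparisons in its class. In Caki-1 the log2 signals of this gene were 10.02, 10.05 and 10.11 in DMSO, 9.98, 9.804 and 9.63 at 6 h, 10.02, 9.95 and 9.88 at 12 h and 9.97, 9.67 and 9.83 at 24 h. In 769-P they were 9.34, 9.24 and 9.204 in DMSO, 9.01, 9.005 and 8.96 at 6 h, 8.96, 8.93 and 8.74 at 12 h and 8.63, 8.82 and 8.64 at 24 h. It fell at all 3 times in 769-P (-0.27, -0.39 and -0.57), and in Caki-1 the 24 h change alone was called (-0.24, adjusted p = 0.0359 by limma), a call lost without DMSO replicate 2 (-0.24) or 3 (-0.21) or 24 h replicate 2 (-0.16) or 3 (-0.24). That call was also lost with quantile normalization (-0.14) and with centred arrays (-0.17). The 769-P call at 6 h was lost without DMSO replicate 1 (-0.23) or 2 (-0.28) or 6 h replicate 2 (-0.28) or 3 (-0.26). The Caki-1 change at 6 h became called without 6 h replicate 1 (-0.34), with centred arrays (-0.24) and with a stricter filter on dim genes. It was also called with the most variable probe set (-0.40), with the replicate block and with all 24 arrays in one fit. With the most variable probe set the Caki-1 change at 12 h (-0.27) was called too.

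DDX10 (chr11:108665069-108940927), a helicase whose yeast counterpart Dbp4 releases a snoRNA from the processome, moved in opposite directions in the lines. Its log2 signals in Caki-1 were 8.39, 8.51 and 8.61 in DMSO, 7.9998, 8.09 and 7.99 at 6 h, 7.39, 7.38 and 7.52 at 12 h and 7.21, 6.76 and 6.96 at 24 h. The 769-P signals were 8.55, 8.61 and 8.58 in DMSO, 9.03, 9.19 and 9.27 at 6 h, 9.12, 9.49 and 9.39 at 12 h and 9.58, 9.66 and 9.61 at 24 h. The difference of the lines in DMSO was -0.077 ± 0.10 (SE) and not called, and no dasatinib array overlapped the DMSO arrays of its line. DDX10 fell in Caki-1, with a change of -1.53 ± 0.11 (SE, n = 3 arrays a group, limma adjusted p = 1.21e-08) at 24 h, and rose in 769-P, by 1.03 ± 0.094 (SE, n = 3 arrays a group, limma adjusted p = 1.38e-07) at 24 h. DDX10 is measured by 1 probe set, so no other probe set bears on this.

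**Figure D3:**
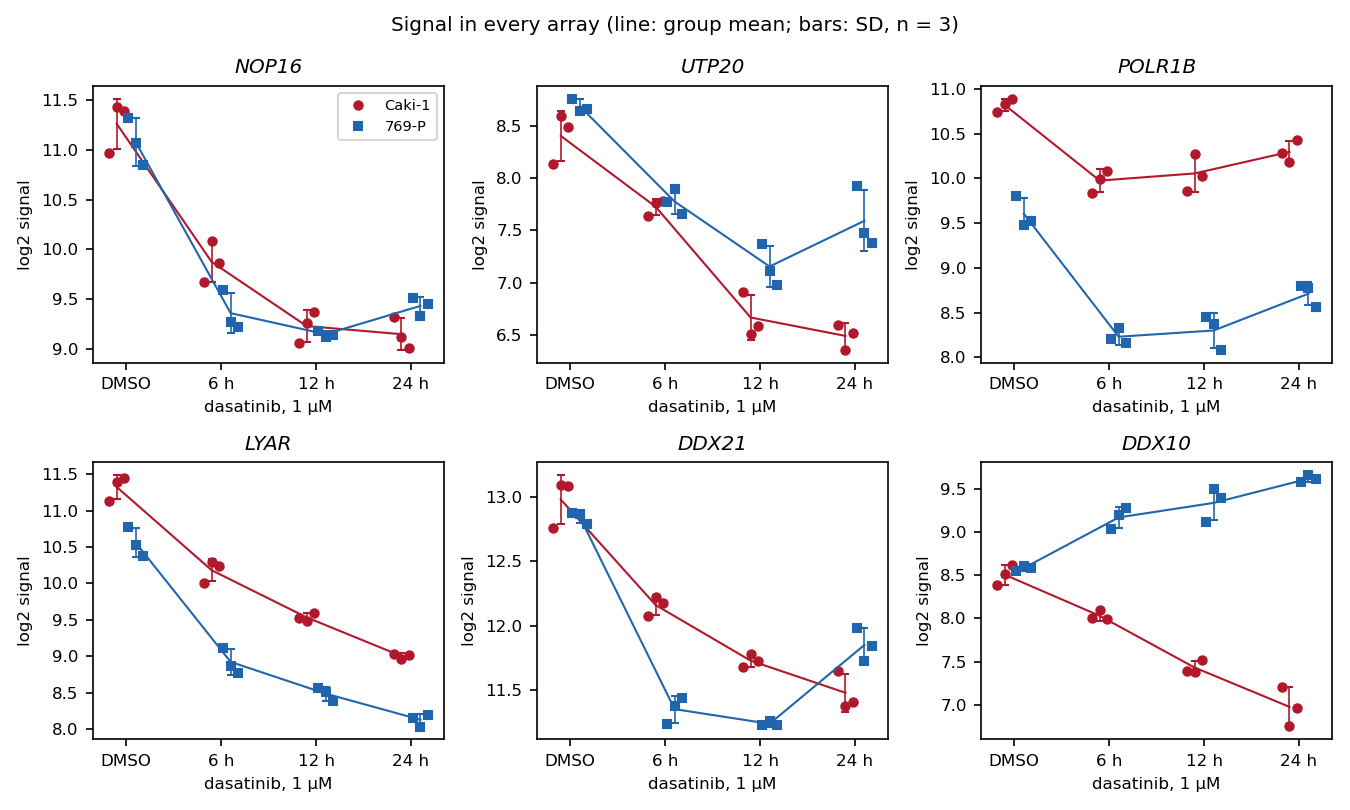
Log2 signal (y) of NOP16, UTP20, POLR1B, LYAR, DDX21 and DDX10 in every array of Caki-1 (circles) and 769-P (squares) in DMSO and after 6, 12 and 24 h in 1 µM dasatinib, with group means (lines) and SD (bars, n = 3). DDX10 goes up in 769-P and down in Caki-1, and DDX21 turns upward at 24 h in 769-P.

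The 60S assembly genes had the lowest class median in every Caki-1 comparison. The counts that fell were 12, 15 and 15 of 15 at 6, 12 and 24 h in Caki-1, and 12, 15 and 14 in 769-P, with median changes of -0.86, -1.22 and -1.40 at 6, 12 and 24 h in Caki-1, and -0.998, -1.16 and -1.05 in 769-P. NOP16 (chr5:176383946-176388598), a nucleolar 60S assembly factor, had log2 signals in Caki-1 of 10.97, 11.43 and 11.39 in DMSO, 9.67, 10.08 and 9.86 at 6 h, 9.05, 9.26 and 9.37 at 12 h and 9.32, 9.12 and 9.001 at 24 h. In 769-P cells the values were 11.32, 11.07 and 10.85 in DMSO, 9.59, 9.27 and 9.22 at 6 h, 9.18, 9.12 and 9.14 at 12 h and 9.51, 9.33 and 9.45 at 24 h. Every dasatinib array was below every DMSO array by a wide margin, with -2.12 ± 0.13 (SE, n = 3 arrays a group, limma adjusted p = 3.47e-09) in Caki-1 at 24 h and -1.93 ± 0.11 (SE, n = 3 arrays a group, limma adjusted p = 2.92e-09) in 769-P at 12 h.

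RRS1, which helps bring the 5S particle into the 60S precursor, had log2 signals in Caki-1 of 11.51, 11.95 and 11.94 in DMSO, 10.28, 10.595 and 10.49 at 6 h, 10.08, 10.18 and 10.21 at 12 h and 10.26, 10.04 and 10.06 at 24 h. The arrays of 769-P read 11.98, 11.63 and 11.45 in DMSO, 9.94, 9.64 and 9.67 at 6 h, 10.09, 9.89 and 9.82 at 12 h and 10.77, 10.46 and 10.6001 at 24 h. The groups did not overlap, and the 769-P change was -1.93 ± 0.12 (SE, n = 3 arrays a group, limma adjusted p = 1.82e-08) at 6 h but -1.07 ± 0.12 (SE, n = 3 arrays a group, limma adjusted p = 2.14e-06) at 24 h. NOC3L (chr10:94314907-94362939), a partner in transporting the 60S precursor, had log2 signals in Caki-1 of 9.71, 9.81 and 9.96 in DMSO, 8.38, 8.44 and 8.26 at 6 h, 7.97, 7.87 and 7.702 at 12 h and 7.88, 7.41 and 7.65 at 24 h. 769-P arrays had signals of 8.41, 8.43 and 8.25 in DMSO, 7.13, 7.04 and 7.03 at 6 h, 7.31, 7.09 and 7.16 at 12 h and 7.55, 7.03 and 7.27 at 24 h. Its Caki-1 change of -2.18 ± 0.12 (SE, n = 3 arrays a group, limma adjusted p = 6.88e-10) at 24 h was larger than the 769-P change of -1.08 ± 0.12 (SE, n = 3 arrays a group, limma adjusted p = 1.22e-06) at that time (difference -1.10, limma adjusted p = 2.29e-05).

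MRTO4, known in yeast (Mrt4) as a placeholder for the ribosomal stalk, fell in all 6 comparisons, with -1.99 in Caki-1 and -1.70 in 769-P at 24 h. BOP1, PES1 and WDR12 form the PeBoW complex, which processes the 60S rRNA. BOP1 had -0.23 (not called) at 6 h and -1.58 at 24 h in Caki-1, and -0.25 (not called) and -1.70 in 769-P. PES1 had -0.25, -0.75 and -0.92 in Caki-1 and -0.35, -0.71 and -0.69 in 769-P, called except at 6 h in Caki-1. WDR12 had -0.50, -1.09 and -1.40 in Caki-1, all called, and -0.10, -0.28 and -0.15 in 769-P, where the 12 h change alone was called. NOP2, an rRNA methyltransferase, and NIP7, BRIX1, PPAN, RRP1B and RRP15, further 60S factors, fell in all 6 comparisons.

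DDX56, a nucleolar helicase, had the smallest mean size of change over the 6 comparisons in its class. In Caki-1 the log2 signals of this gene were 9.25, 9.36 and 9.2997 in DMSO, 8.88, 8.87 and 8.73 at 6 h, 8.602, 8.501 and 8.45 at 12 h and 8.52, 8.57 and 8.601 at 24 h. In 769-P they were 9.702, 9.46 and 9.46 in DMSO, 9.23, 9.05 and 9.07 at 6 h, 8.99, 9.05 and 9.05 at 12 h and 9.35, 9.19 and 9.32 at 24 h. It fell in all 6 comparisons without overlap, with -0.79 in Caki-1 at 12 h and -0.25 at 24 h in 769-P, where that call was lost without DMSO replicate 1 (-0.17) or 24 h replicate 2 (-0.20).

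The abundant nucleolar proteins had changes as large as -2.43 (LYAR) and as small as -0.013 (NPM1). The counts that fell were 3, 4 and 4 of 4 at 6, 12 and 24 h in Caki-1, and 4, 4 and 4 in 769-P, with median changes of -0.52, -0.95 and -1.23 at 6, 12 and 24 h in Caki-1, and -0.89, -1.21 and -1.03 in 769-P. LYAR (chr4:4267701-4290154), a nucleolar zinc finger protein, had log2 signals in Caki-1 of 11.14, 11.39 and 11.45 in DMSO, 10.01, 10.29 and 10.24 at 6 h, 9.53, 9.48 and 9.59 at 12 h and 9.03, 8.96 and 9.01 at 24 h. The 769-P signals were 10.77, 10.53 and 10.38 in DMSO, 9.12, 8.87 and 8.78 at 6 h, 8.57, 8.51 and 8.38 at 12 h and 8.16, 8.04 and 8.19 at 24 h. Its arrays stepped down at each time without overlap, to -2.32 ± 0.088 (SE, n = 3 arrays a group, limma adjusted p = 6.63e-11) in Caki-1 and -2.43 ± 0.11 (SE, n = 3 arrays a group, limma adjusted p = 3.76e-11) in 769-P.

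DDX21 (chr10:68956170-68985068), a helicase that couples polymerase activity to rRNA processing, had log2 signals in Caki-1 of 12.76, 13.09 and 13.09 in DMSO, 12.08, 12.23 and 12.18 at 6 h, 11.68, 11.78 and 11.73 at 12 h and 11.65, 11.38 and 11.41 at 24 h. In 769-P cells the values were 12.88, 12.86 and 12.79 in DMSO, 11.24, 11.38 and 11.44 at 6 h, 11.23, 11.26 and 11.23 at 12 h and 11.98, 11.73 and 11.84 at 24 h. It fell in all 6 comparisons and was lowest at 24 h in Caki-1 (-1.50 ± 0.087 SE, n = 3 arrays a group, limma adjusted p = 1.67e-09) and at 12 h in 769-P (-1.60 ± 0.068 SE, n = 3 arrays a group, limma adjusted p = 1.77e-10). NCL, nucleolin, fell in all 6 with changes of -0.21, -0.65 and -0.96 in Caki-1 and -0.30, -0.82 and -1.06 in 769-P. NPM1, nucleophosmin, a nucleolar chaperone, had the smallest mean size of change over the 6 comparisons in its class. Its log2 signals in Caki-1 were 14.55, 14.499 and 14.52 in DMSO, 14.53, 14.501 and 14.503 at 6 h, 14.47, 14.44 and 14.42 at 12 h and 14.397, 14.39 and 14.41 at 24 h. The arrays of 769-P read 14.61, 14.62 and 14.64 in DMSO, 14.49, 14.53 and 14.53 at 6 h, 14.49, 14.34 and 14.38 at 12 h and 14.25, 14.25 and 14.27 at 24 h. These lie near the highest value of any array, 15.19, so their differences stand close to the upper end of what the arrays recorded.

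NPM1's changes were -0.013, -0.079 and -0.12 in Caki-1 and -0.11, -0.22 and -0.37 in 769-P, called except at 6 h in Caki-1. The 769-P call at 6 h was lost without any 1 of the 6 arrays concerned (-0.12 to -0.096), and with the most variable probe set the change was 0.036 and not called. The Caki-1 call at 12 h was lost without DMSO replicate 1 (-0.067) or 3 (-0.079) or 12 h replicate 2 (-0.076) or 3 (-0.068). With centred arrays the Caki-1 changes were -0.040 at 12 h and -0.063 at 24 h, and neither was called. Without an intensity trend both calls were lost as well (adjusted p = 0.247 and 0.06 by limma).

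**Figure D4:**
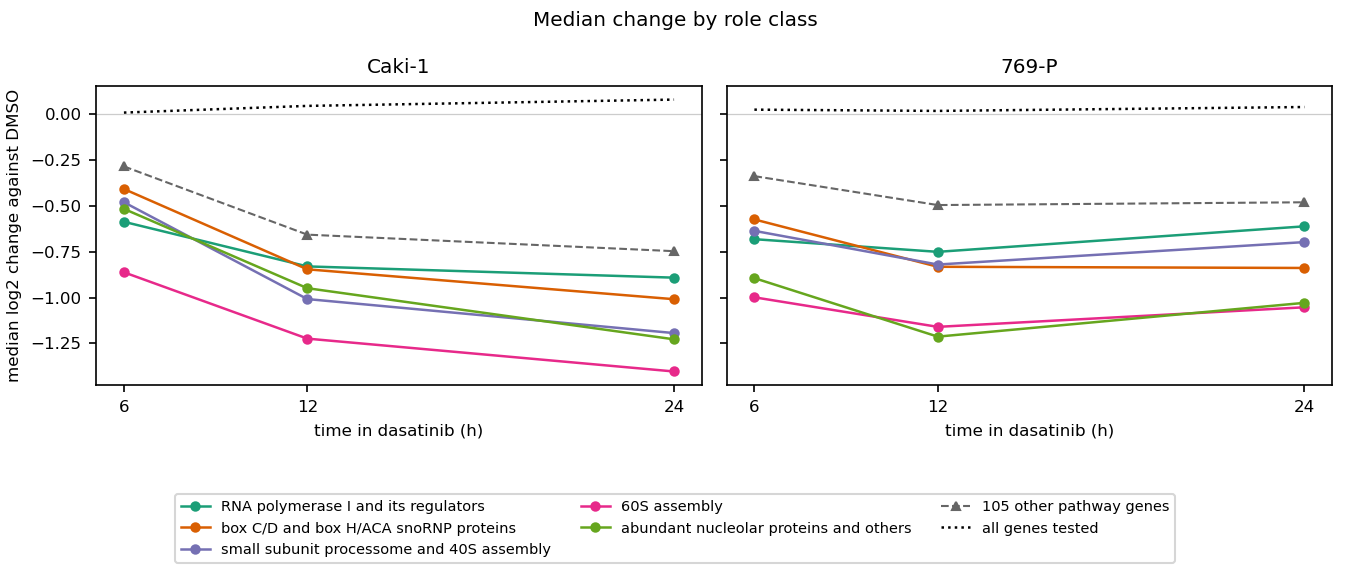
Median log2 change against DMSO (y) of each role class of the 56 genes at 6, 12 and 24 h (x) in Caki-1 and 769-P, beside 105 other ribosome biogenesis genes (dashed) and all genes tested (dotted). The class medians keep going down in Caki-1 and level off or turn up after 12 h in 769-P, while all genes stay near 0.

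The steps between times were tested within each line. No DMSO array is matched to a time, so a step can hold time in culture as well as time in dasatinib. In Caki-1, 37 of 56 genes fell further between 6 and 12 h (14.5% of all genes tested fell) and 19 between 12 and 24 h (14.2%), and 0 rose in either step (12.5% and 10.9% of all genes rose). The median step was -0.41 and -0.17 in these genes, and 0.028 and 0.030 over all genes. At 24 h 48 genes had their lowest group mean, 5 had it at 12 h and 3 at 6 h. The largest steps from 6 to 12 h in Caki-1 were those of MRTO4 (-1.07 ± 0.090 SE, n = 3 arrays a group, limma adjusted p = 5.62e-06), UTP20 (-1.06) and BOP1 (-0.99). Between 12 and 24 h they were those of NHP2 (-0.65 ± 0.055 SE, n = 3 arrays a group, limma adjusted p = 6.87e-07), UTP15 (-0.60) and NOP56 (-0.58). The 19 genes were 11 without 12 h replicate 1. UTP15's call was lost without that array (-0.52) or without 24 h replicate 2 (-0.49), and with its most variable probe set the step was -0.060.

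In 769-P, 15 genes fell and 0 rose between 6 and 12 h (10.2% of all genes tested fell and 8.91% rose). With the replicate number as a block, for which the pairs correlated here, 20 fell. Between 12 and 24 h, 6 fell and 12 rose, against 10.8% and 17.0% of all genes. With the block 7 fell and 16 rose in that step. The shares of all genes are from the fits without the block, so the counts with the block have no share beside them. The median steps were -0.16 and 0.078, and 0.0056 and 0.041 over all genes. Without the block, both the 6 that fell and the 12 that rose between 12 and 24 h are near the shares of all genes. The 12 that rose were RRS1 (0.68 ± 0.12 SE, n = 3 arrays a group, limma adjusted p = 0.000773), DDX21 (0.61 ± 0.068 SE, n = 3 arrays a group, limma adjusted p = 7.01e-06), BYSL (0.59 ± 0.12 SE, n = 3 arrays a group, limma adjusted p = 0.00135), UTP20, UTP4, POLR1B, RRP15, LTV1, RRP12, POLR1C, DDX10 and DDX56. Apart from DDX10 they were still below DMSO at 24 h, except UTP4 (0.12, not called). The 6 that fell were NHP2 (-0.47), BOP1 (-0.37), LYAR (-0.36), FBL, NCL and NPM1, of which FBL and NHP2 are snoRNP proteins and LYAR, NCL and NPM1 nucleolar proteins. The number that rose was 6 without 24 h replicate 1 or without 12 h replicate 3, and the number that fell between 6 and 12 h was as low as 10 with 1 array left out. BOP1's call between 12 and 24 h was lost without 12 h replicate 2 (-0.25) or 24 h replicate 2 (-0.33) or 3 (-0.34), and LYAR's without 12 h replicate 1 (-0.32) or 2 (-0.35) or 24 h replicate 2 (-0.31). By role, the lowest mean came at 24 h in 5 of 8 snoRNP genes and 3 of 4 nucleolar genes of 769-P, but in 0 of 6 polymerase genes, 5 of 23 small subunit genes and 4 of 15 60S genes.

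The change in Caki-1 minus the change in 769-P tests the difference of the lines directly. At 6 h, 2 genes had a lower change in Caki-1 (4.42% of all genes tested) and 6 a higher one (3.68%), with a median difference of 0.10. At 12 h the counts were 8 and 4 (10.3% and 8.67%), with a median of -0.084. At 24 h they were 26 and 3 (22.1% and 13.8%), with a median of -0.40. The medians over all genes were -0.018, -0.0068 and -0.014. The 26 genes at 24 h are 46.4% of the 56. Across the 56 genes the changes of the lines correlated with a Pearson r of 0.85 at 6 h, 0.67 at 12 h and 0.50 at 24 h (Spearman 0.84, 0.71 and 0.60), a description over genes measured on the same arrays.

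**Figure D5:**
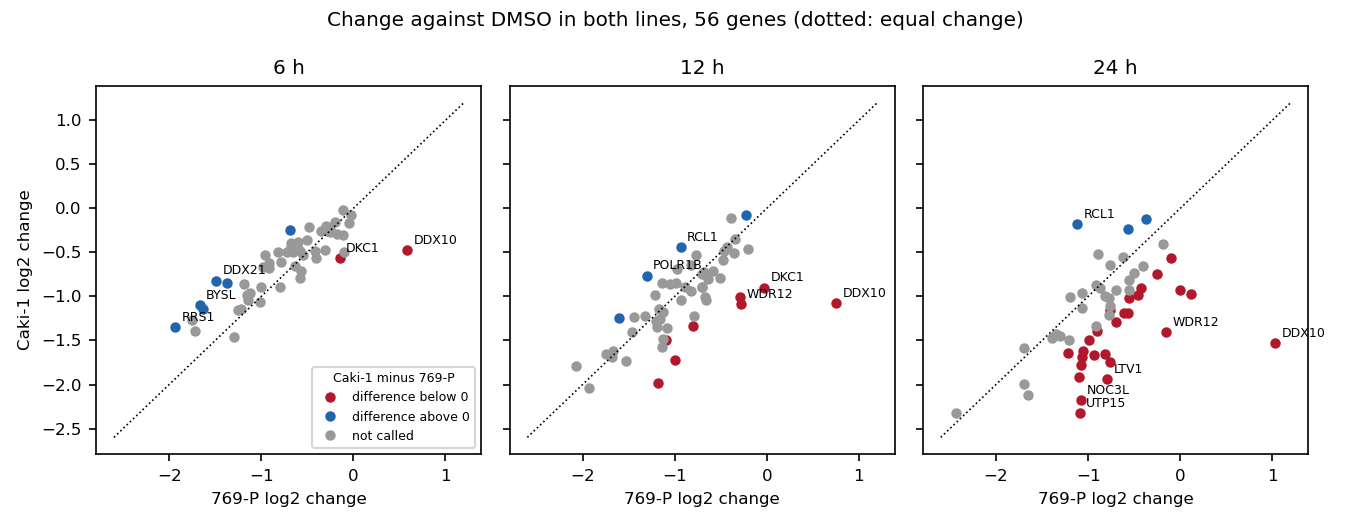
Log2 change against DMSO in Caki-1 (y) and in 769-P (x) of the 56 genes at 6, 12 and 24 h, with genes whose difference was called in red (Caki-1 lower) or blue (Caki-1 higher) and a dotted line of equal change. At 6 h the points follow the line with 8 called, and at 24 h 26 called genes lie below it.

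DDX10 had the lowest difference at each time, of -1.06 ± 0.14 (SE, n = 3 arrays a group, limma adjusted p = 2.07e-05) at 6 h, -1.83 at 12 h and -2.56 ± 0.14 (SE, n = 3 arrays a group, limma adjusted p = 6.95e-12) at 24 h. DKC1 was the other gene lower in Caki-1 at 6 h (-0.42, adjusted p = 0.00618 by limma), and it differed by -0.87 at 12 h. WDR12 differed by -0.80 at 12 h and -1.25 at 24 h, and UTP15 by -1.24 at 24 h. Among the genes higher in Caki-1 at 6 h were DDX21 (0.67), RRS1 (0.59) and BYSL (0.56), and at 24 h the same 3 genes were lower in Caki-1 (-0.51, -0.61 and -0.70, all called). POLR1B (0.54), RCL1, a processome protein (0.49), and DDX21 (0.35) were higher in Caki-1 at 12 h, and RCL1 (0.94), DDX52 (0.33) and NPM1 (0.24) at 24 h.

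Several of these calls depended on single arrays or on the probe set chosen. At 6 h the BYSL difference was lost without any 1 of the 12 arrays (0.48 to 0.61) except DMSO replicate 3 of either line. The RRS1 difference was lost without Caki-1 6 h replicate 2 (0.52) or 3 (0.57), Caki-1 DMSO replicate 1 (0.44), 769-P 6 h replicate 2 (0.53) or 3 (0.55), or 769-P DMSO replicate 1 (0.44) or 2 (0.61). At 12 h POLR1B was lost without Caki-1 12 h replicate 2 (0.43), 769-P 12 h replicate 3 (0.43) or 769-P DMSO replicate 1 (0.44). RCL1 at 12 h was lost without any 1 array (0.34 to 0.52) except Caki-1 12 h replicate 1 and DMSO replicate 3 of either line. DDX21 at 12 h was lost without any 1 array (0.25 to 0.36) except Caki-1 12 h replicate 1, 769-P 12 h replicate 2, Caki-1 DMSO replicates 2 and 3 and 769-P DMSO replicate 3. DDX52 at 24 h was lost without any 1 array (0.26 to 0.34) except 24 h replicate 2 and DMSO replicate 3 of either line. The DKC1 difference at 6 h was not called with the mean of its probe sets (-0.44, adjusted p = 0.134 by limma) or with the most variable one (-0.46). With the mean of probe sets POLR1B (0.38) and DDX21 (0.27) at 12 h and DDX52 (0.26) at 24 h were not called. With the most variable probe set these 3 differences (0.38, 0.29 and 0.099) were not called either. The differences of DDX10, WDR12 and UTP15 named above kept their calls under every setting run.

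The counts of genes higher in Caki-1 were not stable. At 6 h the count of 6 was 1 without Caki-1 DMSO replicate 1 or 769-P 6 h replicate 3, 2 without Caki-1 6 h replicate 2 or 3 or 769-P DMSO replicate 1, and 3 without 769-P 6 h replicate 2 or DMSO replicate 2. At 12 h the count of 4 was 1 without Caki-1 12 h replicate 2, 769-P 12 h replicate 3 or 769-P DMSO replicate 1, and 2 without Caki-1 DMSO replicate 1 or 2, 769-P 12 h replicate 2 or 769-P DMSO replicate 2. The 12 h count of 8 genes lower in Caki-1 was 5 without 769-P DMSO replicate 3, and the 24 h count of 3 genes higher was 2 to 3 with 1 array left out. When arrays were centred on the median of all genes tested, which moved the median difference of all genes by 0.136 at 24 h, the 24 h counts were 22 lower and 7 higher.

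The lines were also compared in DMSO, where the share of these genes called, without regard to direction, was about that of all genes. The directions were uneven, with a smaller share lower in Caki-1 and a larger share higher than among all genes. Caki-1 signals were lower than those of 769-P in 7 of 56 (29.9% of all genes tested) and higher in 26 (28.8%), with a median difference of 0.19, and of -0.040 over all genes. The genes highest in Caki-1 were NOC3L (1.46 ± 0.12 SE, n = 3 arrays a group, limma adjusted p = 1.41e-10), POLR1B (1.21) and NOL11, a processome subunit (1.07). NOC3L signals were 9.71, 9.81 and 9.96 in Caki-1 and 8.41, 8.43 and 8.25 in 769-P, without overlap. The genes lowest in Caki-1 were WDR36, a processome subunit (-0.47), LTV1 (-0.36) and PES1 (-0.33). WDR36 had the opposite sign with its most variable probe set (0.31, adjusted p = 0.0961 by limma) and was not called with the mean of its probe sets (-0.14). LTV1's call was lost without Caki-1 DMSO replicate 1 (-0.25) or 769-P DMSO replicate 1 (-0.32) or 2 (-0.31), and PES1's without Caki-1 DMSO replicate 1 (-0.20).

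Other genes of the pathway also fell, with smaller median changes. Of 105 further ribosome biogenesis genes tested, the numbers that fell were 60, 85 and 91 at 6, 12 and 24 h in Caki-1 and 61, 75 and 70 in 769-P. Among all genes tested 14.0%, 24.4% and 29.9% fell in Caki-1 and 14.5%, 22.6% and 24.6% in 769-P. The numbers that rose were 2, 2 and 4 in Caki-1 and 0, 3 and 4 in 769-P. Of all genes 12.3%, 24.1% and 32.9% rose in Caki-1 and 16.4%, 24.9% and 31.1% in 769-P. Their median changes were -0.28, -0.66 and -0.75 at 6, 12 and 24 h in Caki-1, and -0.34, -0.50 and -0.48 in 769-P. Of the 9 other RNA polymerase I genes the counts that fell were 4, 4 and 5 of 9 at 6, 12 and 24 h in Caki-1, and 4, 4 and 3 in 769-P, with medians of -0.15, -0.069 and -0.23 at 6, 12 and 24 h in Caki-1, and -0.14, -0.065 and -0.14 in 769-P. The 3 of 9 at 24 h in 769-P is not far above the share of all genes that fell (24.6%). TAF1A, a part of the promoter selectivity factor, had -0.64, -0.82 and -1.18 in Caki-1 and -0.67, -0.72 and -0.86 in 769-P, and POLR1F, a polymerase subunit, had -0.71, -1.06 and -1.33 in Caki-1 and -0.29, -0.42 and -0.62 in 769-P. UBTF, the factor that binds the ribosomal DNA, went the other way where called and rose at 6 h (0.36) and 24 h (0.48) in Caki-1 and at 12 h (0.36) in 769-P. Its other changes were 0.22 in Caki-1 and 0.26 and 0.13 in 769-P.

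Of the 13 genes of the RNA exosome, which trims rRNA precursors, 12 fell at 24 h in Caki-1 and 10 in 769-P. At that time 29.9% and 24.6% of all genes tested fell. Named for each list is the pair of genes with the largest mean size of change over the 6 comparisons, here EXOSC2 (-1.32 and -1.15) and EXOSC8 (-2.06 and -1.58), both core subunits. Of 10 snoRNP assembly genes 9 and 6 fell, and the named pair is ZNHIT6, a box C/D assembly factor (-1.25 and -0.51), and RUVBL1, an ATPase (-1.60 and -1.18). Of 31 other small subunit genes 27 and 23 fell, and the named pair is RIOK1, a kinase of late 40S particles (-1.43 and -0.99), and EMG1, an rRNA methyltransferase (-1.43 and -1.14). Of 42 other large subunit genes 38 and 28 fell, and the named pair is URB2 (-1.95 and -1.49) and PAK1IP1 (-2.12 and -1.45), both 60S factors. In this paragraph each pair of values is Caki-1 and then 769-P, both at 24 h.

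MYC, whose E-box motif the windows above show, fell in every comparison against DMSO, with changes of -1.13, -1.12 and -0.85 at 6, 12 and 24 h in Caki-1 and -3.51, -2.80 and -0.91 in 769-P, and it rose by 1.89 between 12 and 24 h in 769-P. The genes with an E-box in their window (18 measured) had medians of -0.59, -1.18 and -1.31 in Caki-1 and -0.79, -1.05 and -0.84 in 769-P. The 30 measured genes with a window but no E-box had -0.50, -0.90 and -1.15 in Caki-1 and -0.58, -0.70 and -0.76 in 769-P. The ranges of the groups overlapped widely at each time. Whether MYC or the motif bears on these changes was not tested.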

How the data were processed

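Transcripts of Caki-1 and 769-P cells were measured on 24 Affymetrix PrimeView arrays, 3 in each of 8 groups, and groups were taken from the labels. The deposited values are log2 signals, 1 column per array, with a range of 2.80 to 15.19. The submitters' processing notes name MAS5, and its version, its settings and how arrays were brought to a common level are not given in the sources used here. No further normalization was applied. Of 49395 probe sets, 102 were controls, 44988 named 1 gene in the platform annotation, 1832 named several and 2473 had no entry.

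The probe set with the highest mean over the 24 arrays stood for a gene, and a gene was tested where its mean passed the 40th percentile of the line's probe sets. Changes were tested with limma 3.58.1 in R 4.3.3 (lmFit and eBayes with an intensity trend, Benjamini-Hochberg adjustment over all genes tested). Each line was fitted with its 4 groups, and differences between lines were fitted on all 24 arrays. The script was tested on simulated data. The members and gene lists were chosen with earlier results of these data known. Any of the 59 genes could be named. Values in every array were given, per role class, for the 2 genes (3 in the 2 assembly classes) with the largest mean size of change and for the one with the smallest. For steps, line differences and DMSO levels the 3 called genes with the largest value in each direction were named, and 2 genes per pathway list. Genes named beyond this rule were chosen after their values were seen.

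Same-numbered arrays were checked for pairing by the correlation of their deviations from the group means. All 3 pairs were over 0.1 for 769-P at 6 h (0.36, 0.11 and 0.29) and at 24 h (0.17, 0.12 and 0.12) against DMSO, and for 12 h against 6 h in both lines and 24 h against 12 h in 769-P. In the other comparisons at least 1 pair was not. Alternatives were another normalization, centring, other filters on dim genes, other choices of probe set, no trend, a replicate block, all 24 arrays in one fit and leaving out each array. Promoter windows came from a RefSeq table on GRCh38.p14, and those printed were chosen after the changes were seen.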

Additional observations from a re-analysis of the deposited data

Results flagged for a closer look

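The changes under dasatinib differed between the lines by a direct test (limma, Caki-1 minus 769-P). At 6 h, 2 of the 56 genes were lower in Caki-1 (4.42% of all genes tested) and 6 higher (3.68%). At 12 h the counts were 8 (10.3%) and 4 (8.67%), and at 24 h 26 (22.1%) and 3 (13.8%). The 12 h counts are near the shares of all genes. With 1 array left out, the count of higher genes ran from 1 to 8 at 6 h and from 1 to 5 at 12 h. DDX10, a processome helicase, differed by -1.06 at 6 h, -1.83 at 12 h and -2.56 at 24 h, and it fell in Caki-1 and rose in 769-P. DKC1, the pseudouridine synthase, differed by -0.42 at 6 h and -0.87 at 12 h. WDR12, a 60S factor, differed by -0.80 at 12 h and -1.25 at 24 h, and UTP15, a processome subunit, by -1.24 at 24 h. Differences above 0 were those of DDX21 (0.67), RRS1 (0.59) and BYSL (0.56) at 6 h, POLR1B (0.54), RCL1 (0.49) and DDX21 (0.35) at 12 h, and RCL1 (0.94), DDX52 (0.33) and NPM1 (0.24) at 24 h. POLR1B and DDX21 at 12 h and DDX52 at 24 h were not called with the mean or the most variable probe set. In groups of 3 arrays no array was tested for standing apart.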

How the results depend on the processing

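Every count of falls against DMSO stayed within 1.5 times its value under all alternatives. With 1 array left out, 42 to 50, 54 to 55 and 54 to 55 genes fell at 6, 12 and 24 h in Caki-1 and 39 to 46, 52 to 54 and 48 to 51 in 769-P. The medians were then -0.58 to -0.48, -1.06 to -0.94 and -1.21 to -1.13 in Caki-1 and -0.72 to -0.58, -0.98 to -0.87 and -0.90 to -0.75 in 769-P. Quantile normalization gave medians of -0.94 at 12 h and -1.07 at 24 h in Caki-1. The mean of a gene's probe sets gave -0.90 and -1.02 there, and -0.55 at 6 h and -0.82 at 12 h in 769-P, and the most variable probe set gave -0.93 in 769-P at 24 h. Between 12 and 24 h in Caki-1, 2 genes rose with quantile normalization, 2 with the replicate block and 1 with the mean of probe sets, with which 12 fell. With 1 array left out, 11 to 19 fell and 0 to 1 rose in that step (11 without 12 h replicate 1, and 1 rose without 12 h replicate 2). In 769-P, 0 to 1 rose between 6 and 12 h (1 without 12 h replicate 1 or 2) with 10 to 18 that fell, and between 12 and 24 h 6 to 10 rose and 4 to 7 fell. For the difference of the lines, 1 to 8 genes were higher at 6 h, 5 to 10 lower and 1 to 5 higher at 12 h, and 22 to 33 lower and 2 to 3 higher at 24 h, with medians of -0.17 to -0.013 at 12 h and -0.50 to -0.30 at 24 h. The count of higher genes at 6 h was 3 with the mean of probe sets and 3 without a trend, and at 12 h it was 8 with centred arrays, 2 with the mean of probe sets, 1 with the most variable one and 2 without a trend. Centring moved the median of all genes in the 24 h difference by 0.136, to 0.122, and gave 7 higher genes and a median of -0.27. In DMSO, 11 genes were lower in Caki-1 with centred arrays and 3 with the most variable probe set, and 5 to 9 lower and 22 to 28 higher with 1 array left out, with medians of 0.12 to 0.26. With the most variable probe set NPM1 in 769-P at 6 h was at 0.036 (adjusted p = 0.693 by limma) and WDR36 in DMSO at 0.31 (adjusted p = 0.0961). The replicate block changed no other count past 1.5 times, though it gave 50 falls at 6 h in Caki-1, 46 at 6 h in 769-P and 31 genes lower in Caki-1 in the 24 h difference. Of the genes followed singly it added DDX52 in Caki-1 at 6 h (-0.25, adjusted p = 0.0255). The causes were not tested. The 3 arrays per group limit the precision.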
